A study of Sus scrofa with 2 samples.

Results

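Peaks in later introns are the ZBTB16 peaks that the authors' annotation places in intron 2 or any later intron of a transcript. They were chosen by that annotation alone and not by any measured value, though with earlier results of these data known. They numbered 665 of 10273 peaks (6.47%) in replicate 1 and 438 of 7301 peaks (5.999%) in replicate 2. They made up 58.3% of 1140 intron peaks in replicate 1 and 63.0% of 695 intron peaks in replicate 2. Together they lay in 849 host genes, the genes whose introns hold them. Of these hosts, 600 were found in replicate 1 and 407 in replicate 2, and 158 were found in both, which is 26.3% of the replicate 1 hosts and 38.8% of the replicate 2 hosts.

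ZBTB16, also called PLZF, is a zinc-finger transcription factor that mainly represses its targets by recruiting corepressors and histone deacetylases through its BTB domain. In mouse testis it marks undifferentiated spermatogonia and is needed to keep the stem cell pool. Introns beyond the first can hold enhancers and the promoters of shorter transcripts, and a peak there can be far from the start of the gene that hosts it.

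The study used wild-type immature spermatogonia from pig testis as its single group, with 2 CUT&Tag libraries of 100000 cells each, and no sample of another genotype, treatment or time was compared here. In CUT&Tag an antibody, here against ZBTB16, directs a transposase that cuts and tags DNA near the bound protein. The sources used here do not say whether the libraries came from separate animals or cultures, so every test below compares peaks within these libraries, and neighbouring peaks are not independent. The cell type was not checked against markers, since peak lists carry no expression values.

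Peaks in later introns were small. Their median fold enrichment over background, the authors' own value for each peak, was 4.41 in replicate 1 and 4.46 in replicate 2. Over all peaks it was 4.978 in replicate 1 and 4.9997 in replicate 2. The number of fragments stacked at the summit, recovered from the authors' fold and p-value, had a median of 11 in replicate 1 and 10 in replicate 2. Over all peaks that median was 16 in replicate 1 and 14 in replicate 2. Thus 274 of the 665 peaks (41.2%) in replicate 1 and 260 of the 438 (59.4%) in replicate 2 rested on 10 fragments or fewer. That share was not computed over all peaks, whose first quartile was 12 fragments in replicate 1 and 11 in replicate 2. For later-intron and for distal intergenic peaks alike, the first quartile was 9 in replicate 1 and 8 in replicate 2. The peaks were also narrower, with a median width of 363 bp in replicate 1 and 352 bp in replicate 2, against 506 and 470 bp over all peaks of those lists. Promoter peaks made up 60.8% and 64.0% of those lists. Other classes were much like later introns. First-intron peaks had median widths of 374 and 372 bp and medians of 12 and 11 fragments in replicates 1 and 2. Distal intergenic peaks had 383.5 and 369 bp, and 11 and 10 fragments.

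By fold, peaks in later introns were lower than those in distal intergenic DNA in replicate 1. A difference from peaks in first introns did not pass the test. The measure was the share of peaks at or above the median fold of the whole list, which was 50.0% of all replicate 1 peaks and 50.0% of all replicate 2 peaks. In replicate 1, 27.1% of peaks in later introns reached it, against 33.2% of distal intergenic peaks (odds ratio 0.746, adjusted p = 0.0204, n = 665 and 1228 peaks). In replicate 2, 28.1% did, against 33.5% of distal intergenic peaks (odds ratio 0.776, adjusted p = 0.12, n = 438 and 747 peaks). Against first introns the share was 27.1% in later and 25.5% in first introns in replicate 1 (odds ratio 1.09, adjusted p = 0.746, n = 665 and 475 peaks). In replicate 2 this was 28.1% in later and 22.2% in first introns (odds ratio 1.37, adjusted p = 0.156, n = 438 and 257 peaks). All p-values of these shares are from two-sided Fisher's exact tests on peaks with Benjamini-Hochberg adjustment over 14 tests, unless another test is named. At the edge of the rule, intron 2 peaks had a median fold of 4.47 and 4.49 in replicates 1 and 2, and intron 1 peaks 4.32 and 4.30.

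Few of these peaks recurred. A peak is called recurrent where it overlapped any peak of the other library by at least 1 bp. In replicate 1, 152 of 665 peaks in later introns recurred, or 22.9% (95% Wilson interval 19.8 to 26.2%), against 53.2% of all replicate 1 peaks. In replicate 2, 157 of 438 recurred, or 35.8% (31.5 to 40.4%), against 75.0% of all replicate 2 peaks. Promoter peaks recurred at 66.9% in replicate 1 and 86.7% in replicate 2. The shares of the 2 libraries describe the same pairs of peaks from either side and are not independent, and the intervals cover counting error only.

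**Figure D1:**
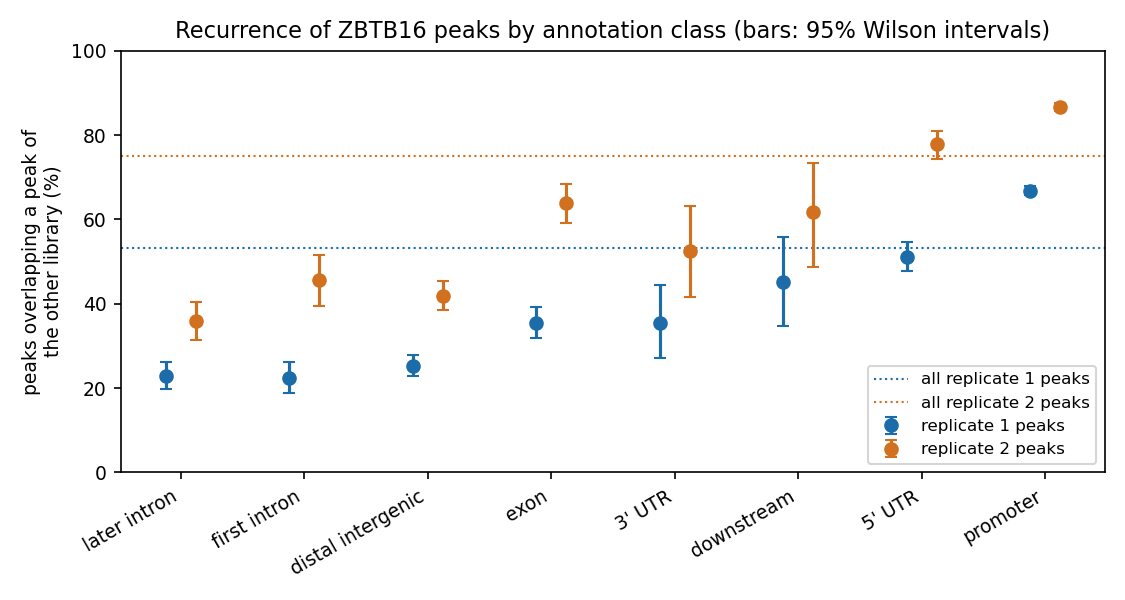
Share of peaks (%, y axis) that overlapped a peak of the other library, by annotation class (x axis), with 95% Wilson intervals and dotted lines for all peaks of a list. Later-intron peaks recurred at 22.9% in replicate 1 and 35.8% in replicate 2, below the lines at 53.2% and 75.0%.

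Against first-intron peaks a lower share passed the test in replicate 2 and not in replicate 1, and the difference between the libraries was not tested. In replicate 1 the share was 22.9% in later introns and 22.3% in first introns (odds ratio 1.03, adjusted p = 0.952, n = 665 and 475 peaks). In replicate 2 it was 35.8% in later introns and 45.5% in first introns (odds ratio 0.669, adjusted p = 0.0357, n = 438 and 257 peaks). Within quartiles of fold the replicate 2 difference stayed past the threshold (pooled odds ratio 0.609, adjusted p = 0.0194, Cochran-Mantel-Haenszel test, n = 438 and 257 peaks), but within quartiles of summit fragments it did not (0.7997, adjusted p = 0.336). It also missed the threshold when only a partner of the same class counted (0.890, adjusted p = 0.643, Fisher's exact test). The kind of partner differed between the classes: 142 of 157 recurrent replicate 2 peaks in later introns (90.4%) met a later-intron peak, whereas 90 of 117 in first introns (76.9%) met a first-intron peak and 12 (10.3%) a promoter peak. Compared with distal intergenic peaks, recurrence in replicate 1 was 22.9% in later introns and 25.3% in distal DNA (odds ratio 0.874, adjusted p = 0.336, n = 665 and 1228 peaks). In replicate 2 it was 35.8% in later introns and 41.9% in distal DNA (0.775, adjusted p = 0.099, n = 438 and 747 peaks). Without the 8 peaks of the gene EEA1 the replicate 2 share in later introns was 34.9% (0.743, adjusted p = 0.0434, Fisher's exact test).

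Recurrence followed peak height. Recurrent peaks in later introns had a median fold of 5.005 in replicate 1, against 4.32 for peaks found only there, and 4.85 in replicate 2, against 4.12 for peaks found only there. Their median fragment number was 16 in replicate 1, against 10 for library-only peaks, and 13 in replicate 2, against 8. By quartile of summit fragments in the whole replicate 1 list, the recurrent share of peaks in later introns was 8.22%, 26.3%, 51.9% and 84.1% from the lowest to the highest quartile. In replicate 2 it was 15.4%, 52.1%, 86.1% and 97.2%. The rise was not particular to later introns. From the lowest to the highest quartile, the share over all peaks went from 15.7% to 90.9% in replicate 1 and from 38.2% to 98.4% in replicate 2. Distal intergenic peaks went from 8.68% to 85.1% and from 20.8% to 94.8%, and first-intron peaks from 9.79% to 72.2% and from 27.6% to 100%. Most members sat at the low end: the lowest quartile held 377 of the 665 replicate 1 peaks and 272 of the 438 replicate 2 peaks. In the highest quartile there were 44 replicate 1 peaks, of which 37 recurred, and 36 replicate 2 peaks, of which 35 recurred. No member was filtered out of these counts.

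**Figure D2:**
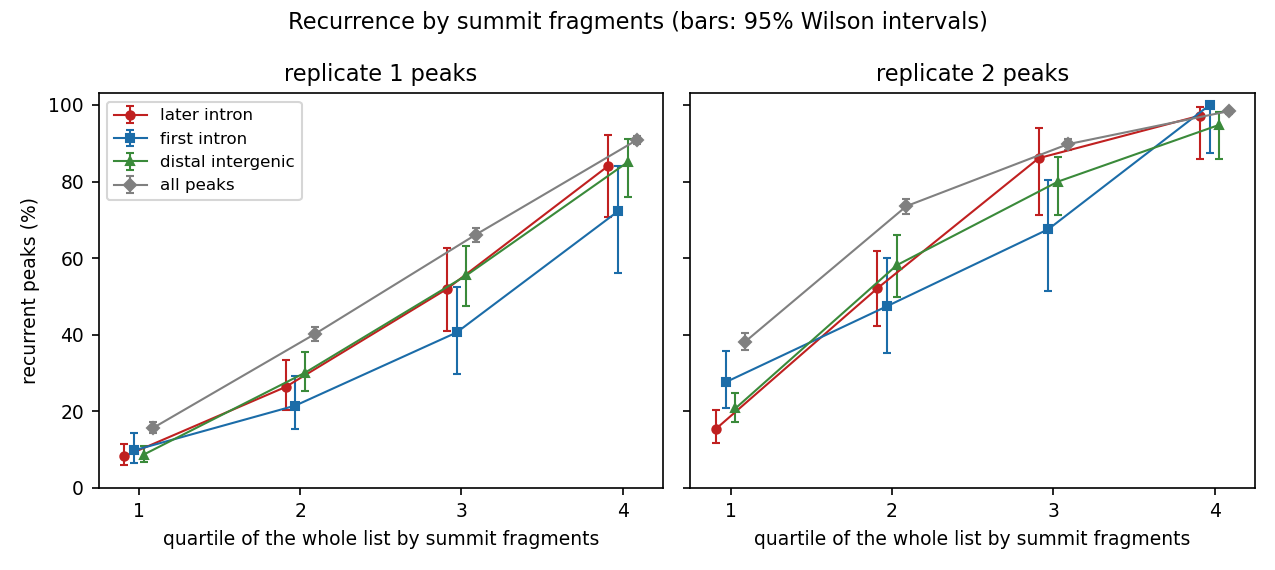
Recurrent share of peaks (%, y axis) by quartile of the whole list by summit fragments (x axis, 1 lowest) for later-intron, first-intron, distal intergenic and all peaks, with 95% Wilson intervals. In later introns the share was 8.22% in the lowest and 84.1% in the highest quartile in replicate 1, and 15.4% and 97.2% in replicate 2.

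The position within the gene varied widely. The distance to the transcription start site (TSS) that the authors assigned had a median of 24.5 kb in replicate 1 and 26.8 kb in replicate 2, without regard to sign. It ran from -402736 to 394992 bp in replicate 1 and from -356218 to 485020 bp in replicate 2, where a negative value is upstream of the TSS. The assigned TSS belonged to another gene than the host in 275 peaks (41.4%) in replicate 1 and 187 (42.7%) in replicate 2. For first-intron peaks the assigned gene was the host in 90.5% in replicate 1 and 90.3% in replicate 2. A gene name taken from the nearest TSS therefore often differs from the gene whose later intron holds the peak. Of the other assigned genes, 141 of 275 in replicate 1 and 88 of 187 in replicate 2 were protein-coding, and 80 and 64 were long non-coding RNA (lncRNA) genes.

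**Figure D3:**
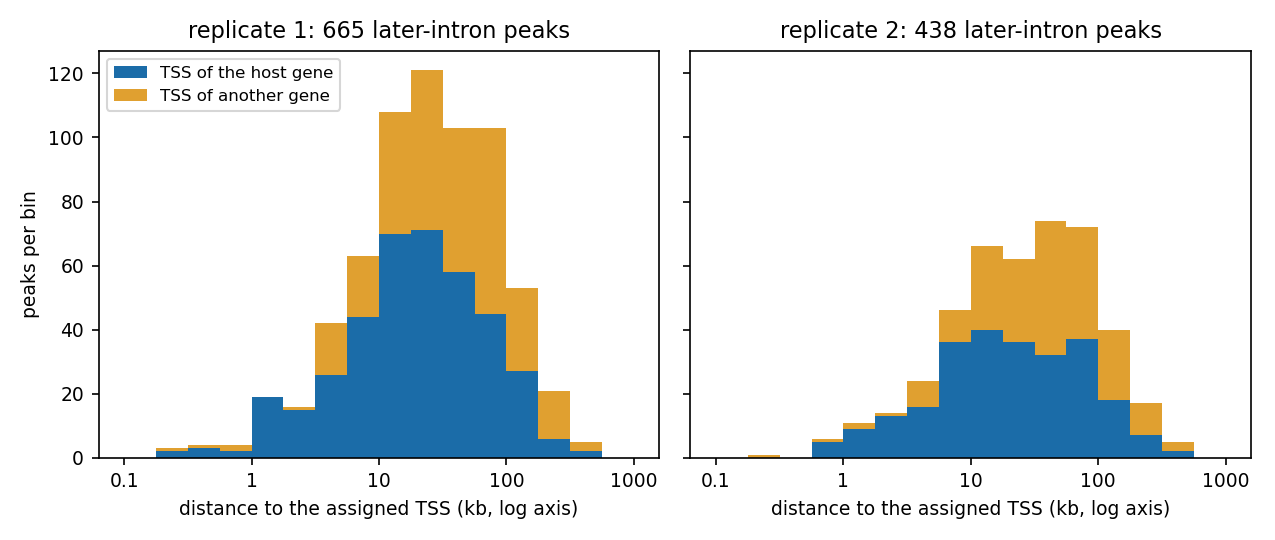
Number of later-intron peaks (y axis) by absolute distance to the assigned TSS (x axis, kb, log scale), coloured by whether that TSS is the host gene's or another gene's. Medians were 24.5 kb in replicate 1 and 26.8 kb in replicate 2, and another gene was assigned in 41.4% and 42.7%.

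The authors' lists give a strand only for genes to which some peak was assigned. Measured along the host gene itself, where its strand was so known (513 peaks in replicate 1 and 332 in replicate 2), the summit lay a median of 44.9 kb and 49.3 kb from the start of the gene. That is about the middle of the gene, at a median of 52.4% and 52.6% of its length. The last intron held 97 peaks in replicate 1 and 64 in replicate 2, or 14.6% in each. The recurrent share by distance to the assigned TSS was 31.3% in replicate 1 and 46.9% in replicate 2 within 5 kb, and 20.3% and 25.8% beyond 100 kb. Median fragments moved with it, at 13 in replicate 1 and 12 in replicate 2 within 5 kb and 10 and 8 beyond 100 kb, and their part in the trend was not tested. By intron number the recurrent share was between 21.5% and 22.2% in replicate 1 and between 33.3% and 36.1% in replicate 2 for introns 2 to 15. For intron 16 or later it was 32.8% of 61 peaks in replicate 1 and 50.0% of 46 peaks in replicate 2, and without the peaks of the gene EEA1 it was 27.3% and 42.1%.

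The recurrent peaks formed 167 sites, each a pair of overlapping peaks with a later-intron peak on at least 1 side, in 155 host genes. Where 2 folds or fragment numbers are given for a site, the replicate 1 value precedes the replicate 2 value. At 142 of them both peaks were annotated to later introns. The summits lay a median of 112 bp apart, and at 74 sites (44.3%) they were within 100 bp. At no site did the folds differ by 2-fold or more between the libraries. Across the 167 sites the folds had a Spearman rho of 0.446 and a Pearson r of 0.670 on the log2 scale, as a description of sites that share the same 2 libraries. The site of LOC106504325, with folds of 21.1 and 20.9, and the low EEA1 sites lie at the ends of the range. Coefficients without them were not computed. Only sites called in both libraries enter, which limits how far apart the folds can lie. The authors' nearest TSS was the host's at 96 sites and another gene's at 71.

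**Figure D4:**
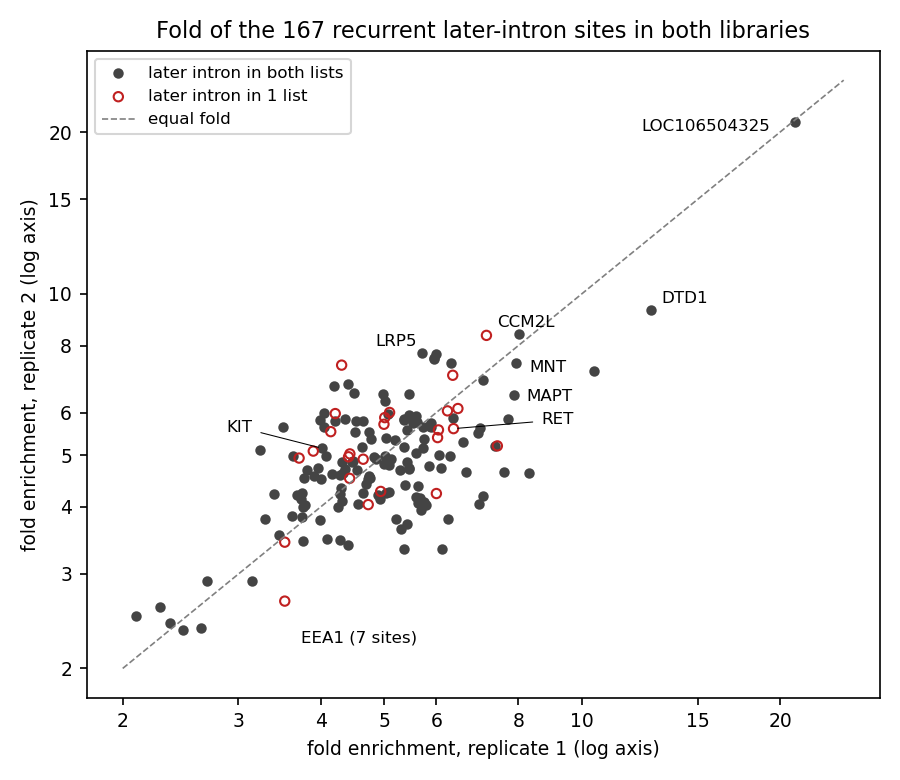
Fold enrichment of each of the 167 recurrent sites in replicate 1 (x axis, log scale) and replicate 2 (y axis, log scale); open circles are annotated to a later intron in 1 list only and the dashed line marks equal fold. LOC106504325 stood far from the rest at 21.1 and 20.9, and the 7 EEA1 sites lay at the low end.

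The tallest recurrent site was in intron 2 of 2 of the lncRNA gene LOC106504325, at chr7:10867835-10868348 (Sscrofa11.1). Its fold was 21.1 in replicate 1 and 20.9 in replicate 2, from 660 fragments (95% exact Poisson interval 611 to 712) and 472 fragments (430 to 517), and the summits coincided. The local background there was also high, at 30.3 and 21.7 fragments, against medians of 1.72 and 1.30 in later introns. The next was in intron 4 of 5 of DTD1, which removes wrongly attached D-amino acids from transfer RNAs, at chr17:26850091-26850380. Its fold was 12.7 in replicate 1 and 9.33 in replicate 2, from 36 and 18 fragments. Both libraries also had a promoter peak at DTD1.

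The 12 highest-ranked sites were ranked by the lower of their 2 within-library ranks of fold. MNT, a partner of MAX that represses transcription and opposes MYC, had a site in intron 4 of 5 at chr12:48477810-48478764, with folds of 7.94 in replicate 1 and 7.41 in replicate 2 from 61 and 43 fragments. It lay 7.97 kb from the TSS of MNT, whose promoter had a peak in both libraries. JAK3, a kinase that signals from cytokine receptors, had a site in intron 6 of 23 with folds of 6.36 and 7.04, which was annotated to an exon in replicate 2. SPATA13, a guanine nucleotide exchange factor, had folds of 6.32 and 7.43 in intron 4 of 17. SH2D3C, an adapter protein, had folds of 6.24 and 6.04 in intron 9 of 12, annotated to an exon in replicate 1, and a second recurrent site in intron 3. None of JAK3, SPATA13 and SH2D3C had a promoter peak in either library.

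Other hosts among the 12 had various roles. MAPT, which encodes the microtubule-binding protein tau, had folds of 7.87 in replicate 1 and 6.47 in replicate 2 in intron 10 of 14, 93.8 kb from the TSS. CCM2L, a relative of the vascular scaffold protein CCM2, had folds of 7.15 and 8.36, with an exon annotation in replicate 1. RNF187, a ubiquitin ligase, had folds of 7.07 and 6.89 in intron 6 of 7, and the authors assigned that peak to LOC100621538 at 26.2 kb. CARNS1, the carnosine synthase, had folds of 6.47 and 6.10 in its last intron, with an exon annotation in replicate 2, and its peak was assigned to RPS6KB2. The pseudogene LOC110261398 had 8.004 and 8.400, and LOC102160746, on an unplaced scaffold, 10.4 and 7.18. With the exception of MNT and DTD1, none of the 12 sites lay in a gene with a promoter peak in either library.

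Among genes known from spermatogonia, RET and KIT held recurrent later-intron sites. Of 32 genes on a list of undifferentiated spermatogonia, 3 (9.38%) held a later-intron peak in either library, against 4.22% of all 16487 protein-coding genes with a symbol. RET, the receptor subunit for GDNF, which maintains the spermatogonial stem cells of mice, had the only recurrent one, and these counts are too small to set the list apart from the background. Its site at chr14:61336124-61336797 lay in intron 5 of 21, 30.3 kb from the TSS, with folds of 6.37 in replicate 1 and 5.60 in replicate 2 from 20 and 13 fragments. The replicate 2 peak was annotated to an exon. CDH1, which encodes E-cadherin, had a fold of 3.45 and PAX7, a transcription factor of some mouse spermatogonia, 3.56, each from 7 fragments in replicate 1, and neither recurred.

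KIT was the single host on the list of 13 genes of differentiating spermatogonia (7.69%) and on the list of 16 genes reported as ZBTB16 targets or partners in mouse (6.25%), beside 4.22% of all protein-coding genes, so that 1 host is near the background on either list. It encodes the receptor for KIT ligand, and mouse spermatogonia gain this receptor as they differentiate. Its site in intron 8 of 21, at chr8:41469982-41470381, lay 67.6 kb from the TSS. The fold was 4.03 in replicate 1 and 5.14 in replicate 2, from 14 fragments (95% exact Poisson interval 7.65 to 23.5) and 16 fragments (9.15 to 26.0). These intervals overlap. A promoter peak at KIT was listed in replicate 2 and not in replicate 1.

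On the lists of chromatin regulators and of adhesion genes, 10 genes each were hosts. These were 10 of 52 chromatin regulators (19.2%) and 10 of 42 adhesion and axon guidance genes (23.8%), beside 4.22% of all protein-coding genes, and the lists were not tested against that share. Of the 10 chromatin regulators, 3 held a recurrent site. ARID1B, a subunit of the BAF remodelling complex, had folds of 6.99 and 5.61 in intron 4 of 20, assigned by distance to LOC110259919 at 224 kb. TET3, an enzyme that oxidises 5-methylcytosine, had a fold of 5.18 in replicate 1 and did not recur. KDM6B, a demethylase of histone H3 lysine 27, had folds of 4.29 and 3.47 in intron 3 over a background of 9.26 and 7.06 fragments. Of the 10 adhesion hosts, COL4A2, a basement membrane collagen, alone held a recurrent site, with folds of 5.42 and 4.86. ROBO2, a receptor of the guidance protein SLIT, had a fold of 5.30 and CDH23, a cadherin, 5.05, both in replicate 2 only. The median length was 98.2 kb on the chromatin list and 314 kb on the adhesion list, against 25.4 kb over all protein-coding genes, and of the longest of those genes, those above 67.3 kb, 11.2% were hosts.

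Signalling lists had between 1 and 3 hosts each, numbers too small to set them apart from the 4.22% of all protein-coding genes. In the GDNF, FGF and RAS list 3 of 36 genes were hosts (8.33%): RET, the transcription factor gene ETV1 with a fold of 4.04 in replicate 2, and SPRY1, an inhibitor of receptor tyrosine kinase signalling, whose recurrent site had folds of 4.77 in replicate 1 and 5.35 in replicate 2. In the WNT list 3 of 30 were hosts (10.0%): AXIN1 with a fold of 4.60 in replicate 2, DAAM1 with 3.97 in replicate 1, and LRP5, a WNT co-receptor, whose recurrent site in intron 22 of 22 had folds of 5.95 and 7.56. The PI3K list had 1 of 30 (3.33%), INPP4B with a fold of 3.86 in replicate 1, and the TGF-beta list had 1 of 28 (3.57%), ACVR1 with 4.76 in replicate 2. Among 33 markers of Sertoli, Leydig, peritubular and blood cells, PECAM1 at 4.92 and VWF at 4.78 were hosts in replicate 1 (6.06%), without a recurrent site.

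A few genes held several peaks. EEA1, which encodes a tether protein of early endosomes, held 6 later-intron peaks in replicate 1 and 8 in replicate 2, of which 5 and 7 recurred. They lay side by side in introns 18 to 25 of 32, between 90.23 and 90.25 Mb of chromosome 5, with folds of 2.36 to 3.14 in replicate 1 and 2.36 to 3.44 in replicate 2. The local background there was 14.98 to 24.8 fragments in replicate 1 and 14.5 to 23.8 in replicate 2. These peaks were thus low in fold and high in fragments, and EEA1 also had a promoter peak in both libraries. NFATC2, a transcription factor, held 4 peaks in replicate 1 and 1 in replicate 2. MACF1, a linker of the cytoskeleton, RUNX1, a transcription factor, and SPATA13 held 3 each in replicate 1 and 2 each in replicate 2. The site of NFATC2 had folds of 5.36 and 3.34, that of RUNX1 5.86 and 4.78, and those of MACF1 6.37 and 5.87 in intron 2 and 5.005 and 6.31 in intron 54. In all, 49 of 600 hosts (8.17%) in replicate 1 and 25 of 407 (6.14%) in replicate 2 held more than 1 peak.

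Some tall peaks were listed in 1 library only. In replicate 1 the highest were in LOC110259881 with a fold of 8.16, C4H8orf34 with 7.75, PPFIA2 with 7.63 and RHCE with 7.31, from 17 to 22 fragments. In replicate 2 they were in MAGIX with 6.77, TBC1D20 with 6.57, LOC100621560 with 6.57 and ITGA2 with 6.40, from 12 to 15 fragments. MAGIX and LOC100621560 lie on chromosome X. Peaks in later introns on that chromosome were 1 of 159 X-linked peaks (0.629%) in replicate 1 and 4 of 129 (3.10%) in replicate 2, against 6.47% and 5.999% over all chromosomes.

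Few later-intron peaks lay close to their assigned TSS. None covered it, but the promoter class of the authors takes in distances from 0 to -2995 bp in replicate 1 and -2910 bp in replicate 2, so that this is set by the classes and is no finding. Within 1 kb only the downstream side was open to later-intron peaks, since the promoter class takes the upstream side. Other classes were not counted in this way, so the small share is no finding about later introns. In replicate 1, 11 of 665 (1.65%) lay within 1 kb of the assigned TSS, and in replicate 2, 7 of 438 (1.60%). Among recurrent peaks the share was 5 of 152 (3.29%) in replicate 1, against 6 of 513 library-only peaks (1.17%; odds ratio 2.87, Fisher's exact test, adjusted p = 0.214). In replicate 2 it was 3 of 157 (1.91%), against 4 of 281 (1.42%; odds ratio 1.35, Fisher's exact test, adjusted p = 0.822). The sites within 1 kb that were listed as later intron in both libraries were those of BAZ1A and LOC110258600. BAZ1A, a subunit of chromatin remodelling complexes, had its peak 629 bp from its TSS in replicate 1 and 568 bp in replicate 2, with folds of 5.58 and 4.17. The peak in LOC110258600, on an unplaced scaffold, lay 771 bp from the TSS of the microRNA gene MIR6782 in both libraries. Its folds were 3.46 and 3.55 from 383 and 273 fragments over a background of 109.9 and 76.1 fragments. At ZNF397 and PDE8B a replicate 1 peak at 186 and 514 bp paired with a replicate 2 peak annotated to a 5′ UTR. A replicate 1 peak in RGMB lay 953 bp from the TSS of the lncRNA gene LOC106509507 and paired with a replicate 2 exon peak. At BLOC1S1 a replicate 2 peak at 636 bp paired with a replicate 1 exon peak.

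Counted per peak, later-intron peaks lay in a gene with a promoter peak more often than first-intron peaks did. The classes bear on this, since a peak that reaches the TSS is called promoter and not first intron. Of recurrent replicate 2 peaks, 12 of 117 in first introns met a promoter peak in replicate 1, against 1 of 157 in later introns. How far the classes set the comparison was not tested. In replicate 1, 174 of 665 later-intron peaks (26.2%) lay in a gene with a promoter peak in the same library, against 89 of 475 first-intron peaks (18.7%; odds ratio 1.54, Fisher's exact test, adjusted p = 0.0194). In replicate 2 it was 98 of 438 (22.4%), against 31 of 257 (12.1%, odds ratio 2.10, Fisher's exact test, adjusted p = 0.0113). A gene with several peaks counts once per peak. Without the EEA1 peaks, a setting chosen after seeing the data, the later-intron share was 25.5% in replicate 1 and 20.9% in replicate 2. The odds ratios were then 1.48 and 1.93 (Fisher's exact test, adjusted p = 0.0255 and 0.0254). With protein-coding hosts only, the shares were 28.9% for later-intron and 21.6% for first-intron peaks in replicate 1, and 24.8% and 13.96% in replicate 2, beside 32.8% of all protein-coding genes in replicate 1 and 24.9% in replicate 2. Among peaks with a fold of 5 or more the odds ratios were 1.48 in replicate 1 and 1.90 in replicate 2 and missed the threshold (Fisher's exact test, adjusted p = 0.642 in both libraries). Where the assigned gene was also the host, the replicate 1 odds ratio was 1.42 (Fisher's exact test, adjusted p = 0.0991). Hosts were also longer, with a median of 115 kb per later-intron peak and 76.3 kb per first-intron peak in replicate 1, and 132 and 76.2 kb in replicate 2, and the part of length in this difference was not tested. Of the 155 hosts of recurrent sites, 32 (20.6%) had a promoter peak in both libraries. The share of all genes with a promoter peak in both libraries was not computed, so 20.6% cannot be called high or low.

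Hosts were long genes. Protein-coding hosts had a median length of 113 kb, and hosts of recurrent sites 88.5 kb, against 25.4 kb over all 16487 protein-coding genes. In quartiles of those genes by length, from the shortest to the longest, the share that hosted a later-intron peak was 0.412%, 1.41%, 3.86% and 11.2%. The share that hosted a recurrent site was 0.121%, 0.412%, 0.825% and 1.65%. Peaks per length of intron were not tested. Protein-coding genes hosted 87.4% of the peaks in replicate 1 and 86.5% in replicate 2, and lncRNA genes 11.7% and 12.8%. On the numbered chromosomes and X, 20 of 656 peaks (3.05%) in replicate 1 and 8 of 428 (1.87%) in replicate 2 also lay within a gene other than the host.

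**Figure D5:**
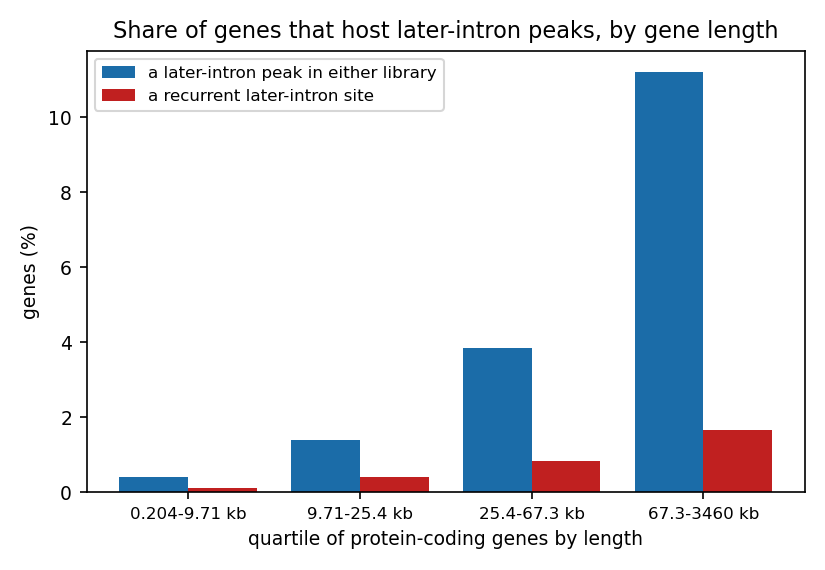
Share of protein-coding genes (%, y axis, from 0) that held a later-intron peak in either library or a recurrent later-intron site, by quartile of gene length (x axis, kb). The share of hosts was 0.412% in the shortest and 11.2% in the longest quartile.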

How the data were processed

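The authors deposited 1 annotated peak list per CUT&Tag library on Sscrofa11.1 (build 11.1 per the submitters' processing notes), with a fold ratio, a −log10 p-value, a −log10 q-value and a score for each peak, as deposited by the authors. How reads were aligned, which caller and control gave the peaks, and how they were annotated is not stated in the labels or files used. Peaks were called per library, so they were compared by overlap. The IgG control and the knockdown RNA-seq named in the labels were not analysed here, and total read depth is unknown. The authors' promoter class reached from the TSS to a distance of -2995 bp in replicate 1 and -2910 bp in replicate 2. An intron number is that of the transcript the authors' annotation chose, and may be a first intron of another transcript.

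Summit fragments were recovered as the whole number n that gives both the deposited fold, (n + 1)/(background + 1), and the deposited −log10 p under a Poisson law; all 10273 and 7301 peaks matched within a relative error of 1e-05. Host genes came from the intron annotation and gene lengths from the RefSeq table (assembly Sscrofa11.1), which held every host. That table gives no strand, so distances to a TSS are the authors' own. Positions along a host used the gene ends of that table and the strand in the authors' lists. Overlaps of at least 1 bp gave the same counts as bedtools 2.31.1. Fisher's exact and Cochran-Mantel-Haenszel tests used scipy 1.17.1 and statsmodels 0.14.6 under Python 3.11.15, and were tested on simulated data. The planned comparison of gene starts between later-intron and distal intergenic peaks was not run, since the class rule fixes it.

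Named were the 12 highest recurrent sites, 4 library-only peaks per library, 6 hosts with the most peaks, every host on the spermatogonia and mouse ZBTB16 lists, up to 3 per other list, and, since no peak covered a TSS, examples within 1 kb. KDM6B, BAZ1A, ZNF397, PDE8B, RGMB, BLOC1S1, LOC110258600 and the second SH2D3C site were chosen after their values were seen. Some results that this rule names are not reported here. Of the listed genes, 6 were not in the table: INHBA, MAGEA4, NANOS3, PRDM9, RARG and SOHLH2. The members and lists were chosen with earlier results of these data known. Peak depth limits the small peaks: 10 fragments have wide counting error.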

Additional observations from a re-analysis of the deposited data

How the results depend on the processing

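The values given here are odds ratios, later-intron over the compared class, or recurrent over library-only for peaks near a TSS. Of 92 values under 16 alternative settings, 65 kept their direction and their side of the 0.05 threshold. Those 65 include values that missed the threshold in the main analysis too, and a count of hosts that changed little. Another 11 changed direction and 1 count of hosts moved. A further 12 missed the threshold where the main value passed, and 3 passed it where the main value had not. The lower replicate 2 recurrence against first introns missed it at fold 5 or more (0.605; by fold strata 0.621), from intron 3 on (0.696; 0.635), with 50% reciprocal overlap (0.907; 0.847) and, chosen after seeing the data, with same-class partners (0.890; 0.835); by fragment strata it was 0.7997. In replicate 1 this odds ratio, at most 1.32 (by fold strata at fold 5 or more) and past the threshold under no setting, turned to 0.994 and 0.968 on numbered chromosomes, 0.943 and 0.914 within 500 bp, and 0.999 and 0.960 without the EEA1 peaks. Against distal peaks, replicate 2 recurrence passed the threshold with same-class partners (0.684) and without EEA1 (0.743), both chosen after seeing the data, and fold did at the upper quartile (0.611). The promoter-peak difference missed it at fold 5 or more (1.48 in replicate 1, 1.90 in replicate 2) and, in replicate 1, where host and assigned gene agree (1.42). The few peaks near a TSS turned to 0.591 at fold 5 or more and 0.673 within 500 bp in replicate 1, and to 0.916 on numbered chromosomes, 0 within 500 bp and 0.894 for protein-coding genes in replicate 2; that value could not be computed in replicate 2 at fold 5 or more or from intron 3 on. The causes were not tested. The count of hosts, 849, was 407 to 600 when a library was left out. No paired analysis was possible because there was 1 group of 2 libraries. Summit fragments, with medians of 11 and 10, limit the precision of single peaks.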
